A study of Mus musculus with 6 samples.

Results

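The genes described are 5 little-studied genes of mouse liver: Pnck, Ankrd60, Cib3, Fam25c and Fam19a2, out of the 40481 genes in the deposited table of all pools. They were chosen by the same contrast that is described below, because their levels kept the control and Mttp-IKO livers clearly apart in these data, so their separation is the reason for their selection and carries no test. Pnck, Ankrd60, Cib3 and Fam25c were lower in Mttp-IKO liver, and Fam19a2 was higher.

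None of the 5 is a classic liver gene. Pnck encodes a calcium/calmodulin-dependent protein kinase, a serine/threonine kinase that is switched on when calcium-loaded calmodulin binds it, and it was named for its rise in the mammary gland during pregnancy. Cib3 encodes a calcium and integrin binding protein, a small EF-hand protein of the family that partners the transmembrane channel-like proteins of sensory hair cells. Fam19a2, also named Tafa2, encodes a small secreted protein of the chemokine-like TAFA family, known mostly from the brain. Ankrd60 is named for its ankyrin repeats, a fold that binds other proteins, and Fam25c is named only for sequence similarity within its family; no role was assigned to either here.

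Mttp encodes the microsomal triglyceride transfer protein, which loads lipid onto apolipoprotein B as chylomicrons are built in the gut, and the study asked what happens in the liver when that step is lost in the intestine. Male C57BL/6 mice with floxed Mttp alleles (Mttp f/f) and a Villin Cre ER T2 transgene, whose tamoxifen-inducible Cre is driven in the intestinal epithelium, were injected on 5 days with tamoxifen at 50 µg per g per day (Mttp-IKO) or with vehicle (control), and, starting 3 weeks later, were fed at 12 to 16 weeks of age a methionine/choline-deficient (MCD) diet, a model of fatty and inflamed liver, for 3 weeks and fasted for 4 h. Control mice are labelled wild type, whereas the article describes littermates given vehicle, and both groups ate the MCD diet, so no chow-fed liver is compared here. Each of the 3 RNA pools per genotype held RNA of 3 to 4 mice, from 12 livers per genotype in all, and a replicate below is such a pool, so the SD between pools is not that between mice, and tamoxifen itself cannot be told apart from the loss of Mttp.

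The pools held 25271585 to 36238734 reads on genes. Levels are CPM, a gene's reads relative to all reads on genes in the pool, scaled by the trimmed mean of M values (TMM), a factor that equalizes libraries over most genes, and fold changes are Mttp-IKO over control on the log2 scale. Mttp itself, which the Villin Cre does not target in liver, was at 150.4 ± 52.21 CPM in control and 144.7 ± 15.95 CPM in Mttp-IKO liver (SD, n = 3 pools), which checks nothing about the deletion. Hepatocyte markers summed to 60636 to 99191 CPM in control and 118727 to 176288 CPM in Mttp-IKO pools. None of the 10 was at 0, and none was called between the genotypes. One control pool, number 2, held striated muscle markers at a summed 876.5 CPM, against 116.4 and 0.8746 CPM in control pools 1 and 3 and at most 1.322 CPM in the Mttp-IKO pools. Pool Mttp-IKO 3 stood apart in short genes: the 559 tested protein-coding genes with 300 to 1000 exon bases took 1.69% of its reads, against 3.62 to 3.84% in the other 5 pools. In the following marker lists no tested gene was called, but many markers were too low to be tested. Cholangiocyte markers (7 of 7 tested, Spp1 the most abundant) summed in control and Mttp-IKO pools to 71.2 to 202.5 and 50.88 to 99.68 CPM. Lymphocyte markers (6 of 7 tested) summed to 5.795 to 10.24 and 2.433 to 4.191 CPM. Small intestine markers (4 of 7 tested) summed to 1269 to 2434 and 802.8 to 2911 CPM, nearly all Apoa4, which liver also makes. Pancreas markers (1 of 7 tested) summed to 5.841 to 7.042 and 3.02 to 6.06 CPM. Male germ cell markers (1 of 7 tested) summed to 0.4373 to 1.686 and 0.4513 to 0.7545 CPM. Fewer cells of a type and less RNA per cell cannot be told apart in any of these bulk values.

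The start regions of the genes are shown first, since genes with like shifts may be compared by the DNA in front of them. RefSeq promoters (GRCm38.p6, the build of the deposited files), windows of 250 bases before to 50 after the start, were found for 4 of the 5 genes. The 250 bases before the start are printed for Fam25c (chr14:34355394-34355643, minus strand), Cib3 (chr8:72212838-72213087, minus strand), Ankrd60 (chr2:173578274-173578523, minus strand) and Fam19a2 (chr10:123263826-123264075, plus strand), 5′ to 3′ on the strand of the gene, with capitals for every match to the 10 motifs searched.
Fam25c: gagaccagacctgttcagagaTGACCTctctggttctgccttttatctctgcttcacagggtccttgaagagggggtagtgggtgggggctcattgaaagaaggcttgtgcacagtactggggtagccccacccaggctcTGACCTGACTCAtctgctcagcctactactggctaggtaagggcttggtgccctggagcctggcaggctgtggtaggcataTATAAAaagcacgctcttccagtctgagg
Cib3: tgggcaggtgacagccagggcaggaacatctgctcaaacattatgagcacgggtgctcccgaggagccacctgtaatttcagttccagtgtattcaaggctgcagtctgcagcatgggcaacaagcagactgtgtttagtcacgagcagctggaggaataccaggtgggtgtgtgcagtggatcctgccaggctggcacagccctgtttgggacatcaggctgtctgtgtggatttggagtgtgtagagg
Ankrd60: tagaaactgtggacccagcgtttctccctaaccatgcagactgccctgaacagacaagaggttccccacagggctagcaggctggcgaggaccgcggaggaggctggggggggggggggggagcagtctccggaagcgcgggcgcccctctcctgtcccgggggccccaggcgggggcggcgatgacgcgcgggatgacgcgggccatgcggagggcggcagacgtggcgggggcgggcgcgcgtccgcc
Fam19a2: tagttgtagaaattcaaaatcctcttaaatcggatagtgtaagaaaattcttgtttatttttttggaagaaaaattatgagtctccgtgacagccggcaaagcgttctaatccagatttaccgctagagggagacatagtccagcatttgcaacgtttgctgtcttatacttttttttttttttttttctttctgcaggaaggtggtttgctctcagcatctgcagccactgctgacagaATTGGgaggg

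The motifs were searched by exact letters on both strands. The Fam25c window held the core promoter motif TATAAA, on the strand of the gene, from position -29 to position -24 relative to the RefSeq start. This motif was found in 13.6% of the 32851 promoters in the table. The start of Fam25c in the deposited coordinates lies 40 bases upstream, so by that annotation the match is inside the gene. The Fam25c window also held the nuclear receptor half-site AGGTCA on the opposite strand at -229 to -224 and at -110 to -105. At least 1 such match is held by 16.3% of promoters. The AP-1 site TGAGTCA lay on the opposite strand at -105 to -99 (5.2%), and the last pair shares 1 base. In the Fam19a2 window the CCAAT box lay on the opposite strand at -10 to -6, and 37.4% of promoters hold it.

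The Cib3 and Ankrd60 windows held no match to any of the motifs. Those without a match in any of the 4 windows were the E-box CACGTG (7.15% of promoters), the D-box TTATGTAA (0.938%), the STAT site TTCNNNGAA (8.3%), the HNF4 site CAAAGTCCA (0.475%), the forkhead site TGTTTAC (3.65%) and the HNF1 half-site GTTAATNAT (0.801%). The windows also differed in composition. Ankrd60 had 33 CpG dinucleotides and 73.7% G and C in its window, against medians of 7 CpG and 52.7% over all promoters. Fam25c had 2 CpG, Cib3 had 3 and Fam19a2 had 8, with 55.3%, 55.7% and 41.7% G and C. The annotated starts of Cib3 and Fam19a2 were the same in RefSeq and in the deposited coordinates. Those of Fam25c were 40 bases apart and those of Ankrd60 were 92 bases apart, so positions depend on the annotation there. Agreement of the annotations does not show which start is used. The printed Cib3 stretch holds an ATG (atgggcaacaag) with an open reading frame after it, so it may lie within the gene and not before it. The start used in these livers was not tested for any of the genes. A match of letters is a description and not a bound site.

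Pnck (ENSMUSG00000002012) was the most abundant of the 5. It lies on chromosome X, from base 73655994 to 73660117 on the minus strand, with 1971 exon bases, and its longest coding transcript encodes 343 residues. Control pools 1, 2 and 3 held 911, 1035 and 1017 CPM, against 282.2, 313.3 and 250 CPM in Mttp-IKO pools 1, 2 and 3. The groups did not overlap, and the level of the lowest control pool was 2.908 times that of the highest Mttp-IKO pool. Means were 987.6 ± 67.02 and 281.8 ± 31.63 CPM (SD, n = 3 pools each), a log2 fold change of -1.81 (SE 0.18), or 3.504-fold lower. These values rest on 106628 control and 23848 Mttp-IKO reads.

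Per kilobase of exon, the scale on which genes may be compared, Pnck was at 501.1 ± 34 CPM per kb in control and 143 ± 16.05 CPM per kb in Mttp-IKO liver. That placed it 71st among 14198 tested protein-coding genes in control liver and 273rd in Mttp-IKO liver. A kinase known from mammary gland and brain was thus among the more abundant mRNAs of these MCD-fed livers in both genotypes. Milk protein markers, listed because Pnck was named for the mammary gland, summed to 0.3604 to 1.562 CPM in control and 0.2517 to 4.255 CPM in Mttp-IKO pools, with Csn1s1 and Csn2 at 0 reads in all 6.

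Ankrd60 (ENSMUSG00000027517) varied least among the control pools, with a coefficient of variation of 1.419%. It lies on chromosome 2 from base 173568666 to 173578365 on the minus strand, with 1189 exon bases in 4 exons and a protein of 318 residues. Control pools 1, 2 and 3 held 204.8, 203.8 and 209.3 CPM, and Mttp-IKO pools 1, 2 and 3 held 60.48, 72.6 and 72.36 CPM. The control pools were close together, and the lowest was 2.808 times the highest Mttp-IKO pool. The log2 fold change was -1.59 (SE 0.16), from 206 ± 2.924 to 68.48 ± 6.932 CPM (SD, n = 3 pools each). Per kilobase this was 173.2 against 57.59 CPM per kb, the 243rd and the 709th place among protein-coding genes. Control pool 2, the pool with the muscle markers, gave 203.8 CPM, beside 204.8 and 209.3 CPM.

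Cib3 (ENSMUSG00000074240) was the gene of the 5 whose control pools were farthest apart. The annotated gene lies on chromosome 8 from base 72204335 to 72212837 on the minus strand. Its annotated model has 646 exon bases in 5 exons and encodes 160 residues. Control pools 1, 2 and 3 held 37.94, 13.97 and 26.33 CPM, against 1.225, 2.058 and 1.468 CPM in Mttp-IKO pools 1, 2 and 3. All 3 Mttp-IKO pools were low and close together, whereas the control pools covered a range from 13.97 to 37.94 CPM. Means of 26.08 ± 11.98 and 1.584 ± 0.4282 CPM (SD, n = 3 pools each) gave a log2 fold change of -4.04 (SE 0.41), or 16.47-fold lower, on 2877 control and 133 Mttp-IKO reads. The nearest pools of the genotypes differed 6.791-fold. Per kilobase Cib3 went from 40.37 to 2.451 CPM per kb, from the 1030th to the 8516th place.

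Markers of other cell classes also differed between the genotypes. The 8 stellate cell and fibroblast markers summed to 1516, 851.4 and 1265 CPM in control pools 1, 2 and 3 and to 456.5 to 509.6 CPM in the Mttp-IKO pools. Of the 8, 5 fell by edgeR's test and none rose, beside 3.09% lower and 0.92% higher over all genes tested. None of these markers was at 0. Among the control pools their sum had the same order as Cib3, as had the sums of the cholangiocyte, lymphocyte, small intestine and milk protein markers. The 8 Kupffer cell and macrophage markers summed to 405.2 to 932.6 CPM in control and 254.2 to 292.2 CPM in Mttp-IKO pools. By the same test 2 were lower (Trem2 and Cx3cr1) and 1 was higher (Timd4, log2 fold change 1.17). The most abundant of them, Gpnmb (-2.45), was not called, so the sum does not stand for every marker of the list. The 6 endothelial markers summed to 364.9 to 414.6 and 364.9 to 414.9 CPM, with none called. The part of these cells in the level of Cib3, or of any of the 5 genes, was not tested.

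Fam25c (ENSMUSG00000043681) is the shortest of the genes, with 408 exon bases in 3 exons and a protein of 89 residues. It lies on chromosome 14 from base 34351881 to 34355433 on the minus strand. Control pools 1, 2 and 3 held 14.98, 9.621 and 7.996 CPM, against 0.9671, 0.8916 and 0.4195 CPM in Mttp-IKO pools 1, 2 and 3. The groups did not overlap, and the nearest pools differed 8.268-fold. Means were 10.86 ± 3.652 and 0.7594 ± 0.2968 CPM (SD, n = 3 pools each), with a log2 fold change of -3.81 (SE 0.38), or 14.31-fold lower. The Mttp-IKO level rested on 66 reads in all, so counting error alone put the ratio of the summed reads, 14.17, between 11.05 and 18.44 (exact 95% binomial interval, which covers counting error only).

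Exon length has to be set beside these values for the shorter genes. Over tested protein-coding genes of 300 to 1000 exon bases, pool Mttp-IKO 3 had a median level -0.95 on the log2 scale relative to the mean of the other Mttp-IKO pools. The same quantity was -0.64 for Fam25c and -0.12 for Cib3, the 2 members in that length class. For genes of 1000 to 2000 bases the median was -0.41, and Pnck was at -0.25 and Ankrd60 at 0.12; for genes of 2000 to 5000 bases it was -0.06, and Fam19a2 was at 0.16. Between the genotypes, the median log2 fold change was -0.34 for genes of 300 to 1000 bases. It was -0.16 for genes of 1000 to 2000 bases and -0.01 for genes of 2000 to 5000 bases. Without pool Mttp-IKO 3 the log2 fold change of Fam25c was -3.54 and that of Cib3 was -3.99. Fam25c was thus lower in the Mttp-IKO pools with or without that pool.

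Fam19a2 (ENSMUSG00000044071) was the only 1 of the 5 with the opposite direction. It is the longest gene of the group, spanning 477129 bases of chromosome 10, from 123264076 to 123741204 on the plus strand, with 4364 exon bases in 6 exons and a protein of 135 residues. Control pools 1, 2 and 3 held 0.124, 0.1664 and 0.1874 CPM, from 5, 6 and 6 reads. Mttp-IKO pools 1, 2 and 3 held 4.191, 3.121 and 4.153 CPM, from 130, 91 and 99 reads. The control reads were few but above the 3 reads that a count of 0 would allow, 0.0828 to 0.0989 CPM before TMM scaling in those pools. The means, 0.1592 ± 0.03231 and 3.821 ± 0.6071 CPM (SD, n = 3 pools each), gave a log2 fold change of 4.56 (SE 0.34), or 24-fold higher.

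Counting error was wide for the control level: on 17 control and 320 Mttp-IKO reads the ratio was 24.3, with an exact 95% binomial interval of 14.94 to 42.24. The lowest Mttp-IKO pool was 16.65 times the highest control pool. Of the 2515 genes whose pools did not overlap in the higher direction, this was the widest gap where any control pool held reads. Genes without reads in any control pool have no such ratio and were not ranked. In absolute terms the gene stayed low. Per kilobase it was at 0.03649 and 0.8757 CPM per kb, the 14169th and the 10867th place of 14198. A small nuclear RNA gene, Gm22958, lies inside Fam19a2 on the same strand but shares no exon base with it and had 0 reads; none of the other 4 genes overlaps an annotated gene. Because Fam19a2 is known mostly from the nervous system, 12 neuron and Schwann cell markers were summed. They reached 12.17 to 18.08 CPM in control and 10.87 to 12.04 CPM in Mttp-IKO pools. Only 6 of the 12 were high enough to be tested, none of these was called, and Th was at 0 reads in all pools.

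**Figure D1:**
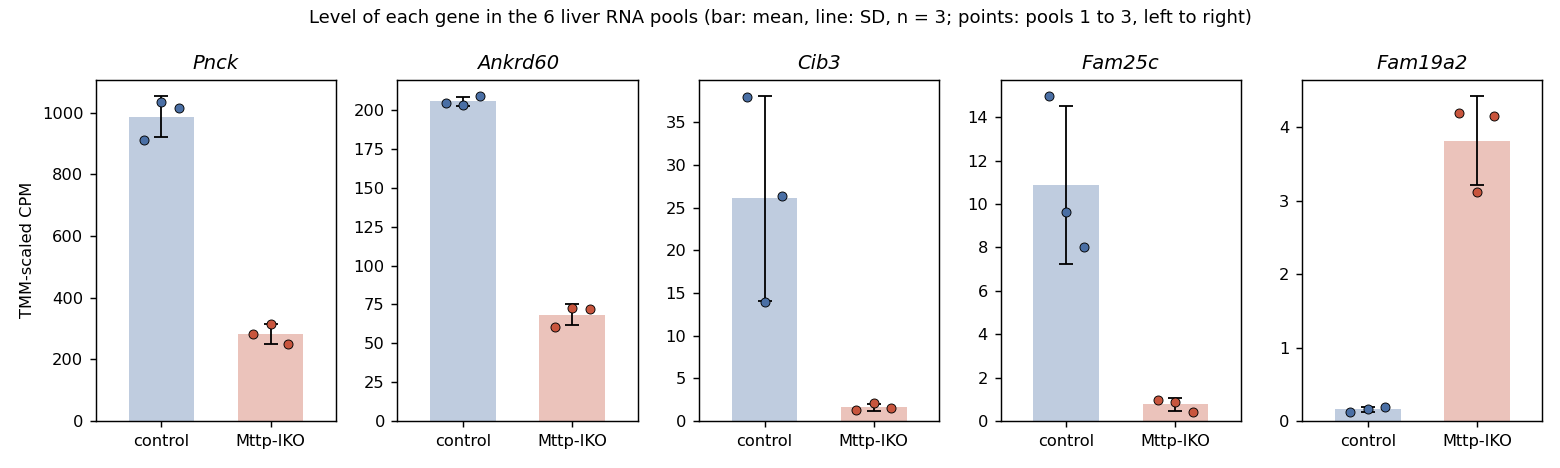
TMM-scaled CPM (linear axes from 0, a scale of its own for each gene) of Pnck, Ankrd60, Cib3, Fam25c and Fam19a2 in 3 control and 3 Mttp-IKO liver RNA pools; bars are means, lines SDs and points single pools in the order 1 to 3. The genotypes do not overlap for any of the 5 genes, by which they were chosen, and the control points of Cib3, from 13.97 to 37.94 CPM, spread most.

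The contrast that chose the genes was read across the whole table to give its background. Of 17287 genes tested, 535 (3.09%) were lower and 159 (0.92%) were higher in Mttp-IKO liver at an adjusted p under 0.05 (edgeR's quasi-likelihood test, Benjamini-Hochberg over all genes tested), and 3977 (23%) had an unadjusted p under 0.05. Control and Mttp-IKO pools did not overlap in 2851 genes (16.5%) in the lower direction and in 2515 genes (14.5%) in the higher direction. Non-overlap as such was thus common. The gap between the nearest pools was one of the values the genes were chosen for. By it, Fam25c was the 4th, Cib3 the 7th, Pnck the 84th and Ankrd60 the 94th of the 2851 genes lower without overlap. This ranking left out genes without reads in any Mttp-IKO pool, for which the gap is not defined. By log2 fold change, Cib3 was the 22nd, Fam25c the 30th, Pnck the 435th and Ankrd60 the 635th lowest of the 17287 genes tested, and Fam19a2 the 5th highest. All 5 passed the filter on low counts, Fam19a2 through its Mttp-IKO pools. The median log2 fold change over all genes tested was 0.01.

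**Figure D2:**
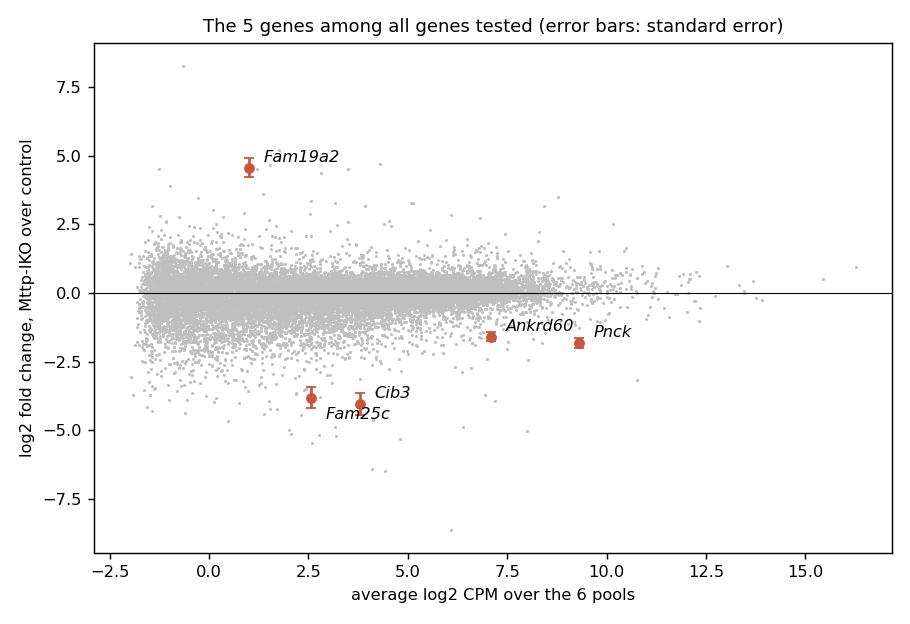
Log2 fold change, Mttp-IKO over control (y axis), against average log2 CPM over the 6 pools (x axis) for 17287 genes tested (grey) and the 5 chosen genes (red, with standard errors). Pnck at -1.81 and Ankrd60 at -1.59 are abundant genes with moderate shifts, Cib3 at -4.04 and Fam25c at -3.81 are less abundant with larger ones, and Fam19a2 at 4.56 lies among the low genes.

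Whether the genes varied together was described over the 6 pools. Pearson's r of log2 CPM between the 4 lower genes was 0.956 to 0.987, and with Fam19a2 it was -0.993 to -0.982. These values are set mainly by the difference between genotypes that all 5 were chosen for. After each genotype's mean was taken away, r between the genes ranged from -0.653 to 0.382 over the same 6 pools. Pools that were high in 1 of the genes were therefore not regularly high in another of the same genotype: control pool 1 was the highest for Cib3 and Fam25c and the lowest for Pnck.

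The genes most like each of the 5 were sought by the same r among 12589 tested genes with an average log2 CPM of at least 1, with the 5 left out. For Pnck they were Klc4 (0.9939), Ltbp1 (0.9935) and Hoxa3 (0.9934). Sec14l2 (0.9959), the microRNA gene Gm25911 (0.9938) and Oxct1 (0.9935) followed Ankrd60 most closely. Their shifts differed widely in size, from 322.1 to 218 CPM for Sec14l2 and from 162.4 to 5.503 CPM for Gm25911, since r does not depend on the size of a shift. The closest to Cib3 were Spn (0.9978), Pamr1 (0.9975) and Mrc2 (0.9971), and Mrc2 went from 19.14 to 3.781 CPM. For Fam25c they were Lonp2 (0.9972), Ptp4a3 (0.9957) and Zfp28 (0.9955), and for Fam19a2 they were Zfp641 (0.9974), Zfp568 (0.9939) and Cyp2c40 (0.9938), the last at 2.836 CPM in control and 15.72 CPM in Mttp-IKO liver. Of the 12589 genes, 160 had an r above 0.95 with Pnck and 372 with Cib3, and such an r says nothing of shared control.

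Relatives of the genes, which were listed by family and not by their shifts, were tested in the fit across all genes. Around Pnck, 28 genes of calmodulin-dependent kinase signaling were listed: other CaM kinases, their upstream kinases, calmodulins, phosphatases and targets. Of the 25 tested, none was called in either direction, and their median log2 fold change was -0.07, against 0.01 over all genes. At an unadjusted p under 0.05, 5 of the 25 passed, near the 23% of all genes tested. DESeq2 called 1 of the 25, beside 1995 of all 17287 genes tested. Camk1, the closest relative in name and a kinase of the same class, was at 24.66 ± 2.671 and 16.07 ± 4.178 CPM (SD, n = 3 pools each; edgeR adjusted p = 0.142). Camk1d, named for the same class, was at 61.67 ± 21.06 and 65.25 ± 14.11 CPM (log2 fold change 0.08, edgeR adjusted p = 0.892). The upstream kinase gene Camkk2 was at 11.47 and 11.48 CPM, and Camkk1 at 1.167 and 0.766 CPM.

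Calmodulin genes, which encode the calcium sensor that activates Pnck, were among the most abundant of the list. Calm3 was at 104.3 and 71.96 CPM (log2 fold change -0.54, edgeR adjusted p = 0.172) and Calm2 at 83.71 and 69.51 CPM (-0.27, adjusted p = 0.648). Dapk1, a death-associated kinase of the same superfamily, was at 90.39 and 114.9 CPM (0.35, adjusted p = 0.214). Egfr, a growth factor receptor, was at 284, 422 and 1432 CPM in Mttp-IKO pools 1, 2 and 3 and 248.8 ± 13.66 CPM in control (adjusted p = 0.151), so pool 3 was far above the other 2. Pnck had a higher level than any of these genes: per kilobase the next in control liver were Calm2 at 57.06 and Calm3 at 43.05 CPM per kb, and Camk1 was at 4.064 CPM per kb, against 501.1 for Pnck.

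For Ankrd60, all 45 other genes named Ankrd with a number were listed, a group that shares the ankyrin fold and little else. None of the 34 tested was called, with a median log2 fold change of -0.03, and 8 had an unadjusted p under 0.05, again near the 23% of all genes. DESeq2 called 3 of the 34, beside 1995 of all 17287 genes tested. The most abundant were Ankrd11 at 149.2 and 177.5 CPM, a chromatin regulator, and Ankrd17 at 146.9 and 202.7 CPM. Ankrd52 (91.19 and 121.7 CPM), a subunit of a protein phosphatase complex, Ankrd40 (50.19 and 53.07 CPM) and Ankrd27 (50.04 and 53.98 CPM), an endosomal regulator, completed the 5. Their edgeR adjusted p-values were 0.152 to 0.775. Ankrd2, Ankrd23 and Ankrd1, muscle ankyrin repeat genes picked after their values were seen, had log2 fold changes of -3.41, -1.91 and -1.77, farther from 0 than Ankrd60, without passing. Of these, Ankrd23 was at 22.13 CPM in control pool 2, the pool with the muscle markers, and at 2.139 to 6.819 CPM in the other 5 pools.

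The list around Cib3 held 23 genes: the other CIB proteins, related EF-hand proteins, the transmembrane channel-like (TMC) family and an integrin. Of the 15 tested, 1 rose and 1 fell, against 0.92% higher and 3.09% lower over all genes tested, and the median log2 fold change was -0.10. Chp1, an EF-hand protein that accompanies sodium/proton exchangers, rose from 243.5, 283.8 and 275.1 CPM in control pools to 423.5, 462 and 491.2 CPM in Mttp-IKO pools (a log2 fold change of 0.78, SE 0.17, edgeR adjusted p = 0.0453). Tmc6, a TMC family member known to act with CIB1, fell from 29.9, 20.82 and 23.02 CPM to 13.41, 14.75 and 12.12 CPM (-0.87, SE 0.19, adjusted p = 0.0451). Both genes kept their direction in all 16 alternative settings, but each passed the threshold in 9 of them. Chp1 passed only without Mttp-IKO pool 3 among the fits that left out a pool, with edgeR adjusted p-values of 0.0778 to 0.201 without any of the other 5, and Tmc6 passed only without control pool 2, with 0.0569 to 0.168 without any of the others.

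The closest relatives of Cib3 had smaller fold changes, none of them called. Cib1 was at 37.54 ± 3.893 and 29.72 ± 12.52 CPM (adjusted p = 0.552, edgeR; SD, n = 3 pools), and Cib2 at 2.424 and 1.328 CPM (adjusted p = 0.165), while Cib4 had 0 reads in every pool. In control liver Cib3 was higher per kilobase, at 40.37 CPM per kb, than Cib1 at 18.29 and Cib2 at 1.691 CPM per kb, and in Mttp-IKO liver it was at 2.451 CPM per kb, below Cib1 at 14.48. The other abundant genes of the list, Ppp3r1, the regulatory subunit of calcineurin (26.44 and 29.63 CPM), Hpcal1 (26.13 and 24.34 CPM) and Tmc7 (21.29 and 28.71 CPM), had edgeR adjusted p-values of 0.361 to 0.774.

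For Fam19a2, 11 genes were listed, the other TAFA ligands and receptors or binding partners reported for the family. All 7 tested had negative log2 fold changes, as had 49.5% of all genes tested, with a median of -0.77, and 2 of them fell, against 3.09% of all genes tested. S1pr2, a receptor for sphingosine 1-phosphate, fell from 19.17, 12.14 and 15.34 CPM in control pools to 5.577, 5.487 and 5.076 CPM in Mttp-IKO pools (a log2 fold change of -1.53, SE 0.21, edgeR adjusted p = 0.0181). Nrxn3, a neurexin that sits on the cell surface, fell from 5.529, 4.713 and 6.403 CPM to 1.032, 1.578 and 2.727 CPM (-1.65, SE 0.36, adjusted p = 0.0483). Their pools did not overlap, as in the 16.5% of all genes tested that were lower without overlap. S1pr2 passed the threshold in 12 and Nrxn3 in 10 of the 16 alternative settings. With a pool left out, S1pr2 passed only without control pool 2 or without Mttp-IKO pool 3 (edgeR adjusted p = 0.0613 to 0.0998 without any of the other 4), and Nrxn3 passed only without Mttp-IKO pool 3 (0.0534 to 0.172 without any of the other 5).

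The other genes of that list did not pass or could not be tested. Nrxn2 was at 8.99 and 7.216 CPM and Fpr1, a formyl peptide receptor of phagocytes, at 4.965 and 3.291 CPM, with edgeR adjusted p-values of 0.302 and 0.423. Of the ligands, Fam19a5 was at 1.761 ± 0.6207 and 0.912 ± 0.4073 CPM (SD, n = 3 pools; adjusted p = 0.247), Fam19a1, Fam19a3 and the receptor gene Gpr1 were too low to be tested, and Fam19a4 had 0 reads in all pools. No tested ligand or partner of the list had a positive log2 fold change, the sign of Fam19a2.

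**Figure D3:**
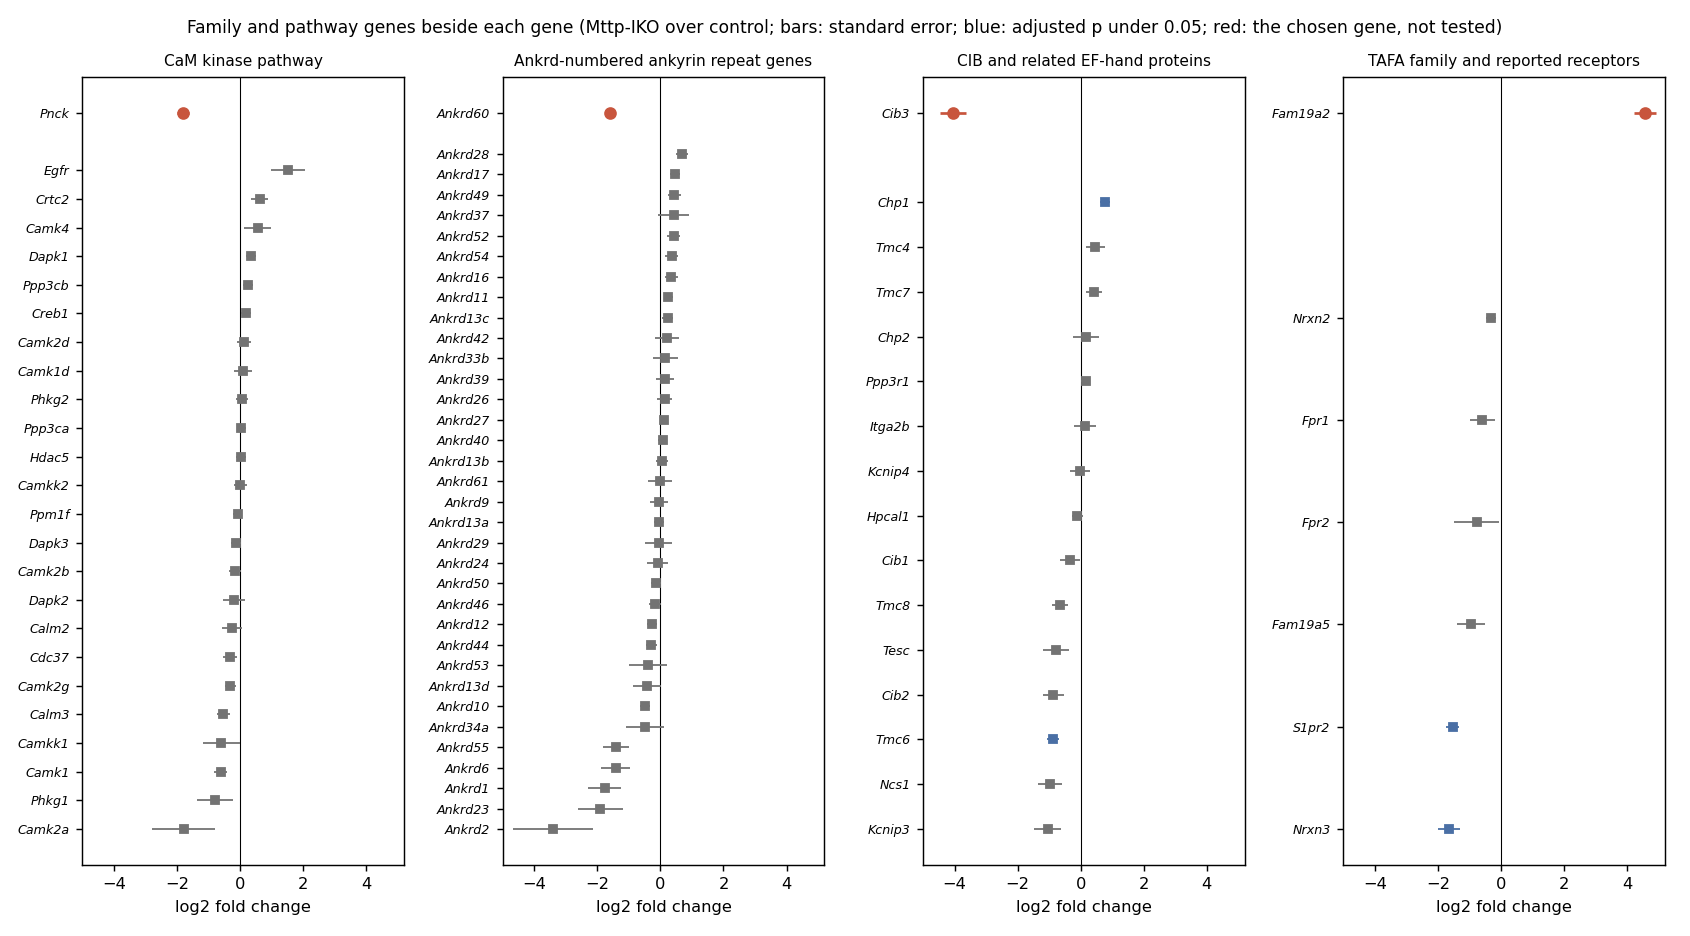
Log2 fold change, Mttp-IKO over control, with standard errors, of genes tested in 4 family or pathway lists (1 gene each of the CaM kinase and TAFA lists is not shown), each below the chosen gene it belongs to (red). Blue marks the genes that passed an adjusted p of 0.05, which are Chp1 (0.78), Tmc6 (-0.87), S1pr2 (-1.53) and Nrxn3 (-1.65); the genes shown lie nearer to 0 than Pnck (-1.81), Cib3 (-4.04) and Fam19a2 (4.56) in their lists, but Ankrd2 (-3.41), Ankrd23 (-1.91) and Ankrd1 (-1.77), none of them called, lie farther from 0 than Ankrd60 (-1.59).

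Genes next to the 5 on the chromosome were tested in the same way, 29 genes within 100 kb, of which 19 were tested. None was called in either direction, and their median log2 fold change was -0.28. At an unadjusted p under 0.05, 5 of the 19 passed, beside 23% of all genes tested. DESeq2 called 2 of the 19, beside 1995 of all 17287 genes tested. Beside Pnck, the creatine transporter gene Slc6a8, 13.03 kb away, was at 39.14 ± 9.414 and 22.99 ± 1.593 CPM (log2 fold change -0.77, edgeR adjusted p = 0.0749; SD, n = 3 pools). On the other side, Dusp9, a MAP kinase phosphatase gene 12.48 kb away, was at 0.823 and 0.634 CPM (-0.36, adjusted p = 0.629). All 5 tested neighbours of Pnck had negative values, from -0.77 to -0.28, each nearer to 0 than Pnck.

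Next to Ankrd60 the pseudogene Ppp4r1l-ps, 0.955 kb away, was at 19.35 and 20.49 CPM, and the closest tested protein-coding gene, Rab22a, a small GTPase gene of endosomes 81.39 kb away, was at 41.04 and 42.4 CPM (edgeR adjusted p = 0.863). Around Cib3 the values were 68.71 and 64.28 CPM for Rab8a, a small GTPase gene 20.43 kb away, and 48.3 and 34.87 CPM for Fam32a, 6.893 kb away (log2 fold change -0.47, adjusted p = 0.152). Fam25c lies between Glud1, the glutamate dehydrogenase gene 6.737 kb away, at 848.6 ± 88.46 and 936.2 ± 71.24 CPM (SD, n = 3 pools), and Mmrn2, an endothelial gene 20.07 kb away, at 16.36 and 13.27 CPM (adjusted p = 0.678 and 0.265). The only tested neighbour of Fam19a2 was Usp15, a deubiquitinase gene 67.14 kb away, at 39.19 and 46.13 CPM (0.24, adjusted p = 0.362). Over all 19 tested neighbours the log2 fold changes ran from -0.77 to 0.55.

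**Figure D4:**
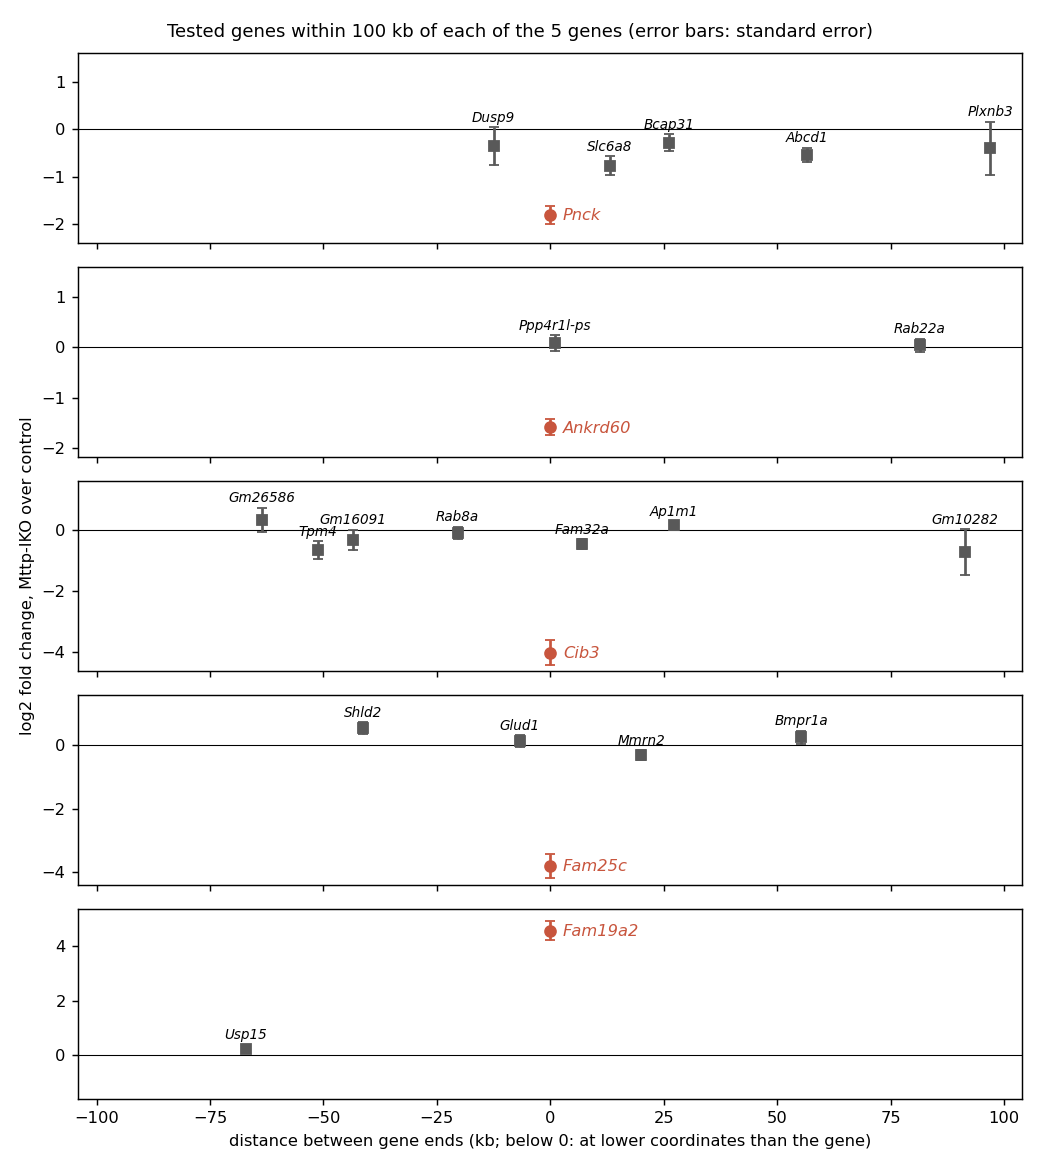
Log2 fold change, Mttp-IKO over control, with standard errors (y axis), of the tested genes within 100 kb of Pnck, Ankrd60, Cib3, Fam25c and Fam19a2, against the distance in kb between the ends of the genes (x axis; a chosen gene, red, is at 0). The 19 neighbours lie between -0.77 and 0.55, and none passed an adjusted p of 0.05.

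The size of each shift was recomputed under 16 other settings. Pnck ranged from -1.99 to -1.72 on the log2 scale, Ankrd60 from -1.77 to -1.40, Cib3 from -4.36 to -3.69, Fam25c from -4.02 to -3.53 and Fam19a2 from 4.38 to 4.69. No setting turned a direction. For Cib3 the ends of the range came from leaving out a control pool, -3.69 without pool 1 and -4.36 without pool 2, as its control pools differed most. Scaling by total counts alone, which put the median of all genes at -0.17, gave the lowest values for Pnck and Ankrd60.

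**Figure D5:**
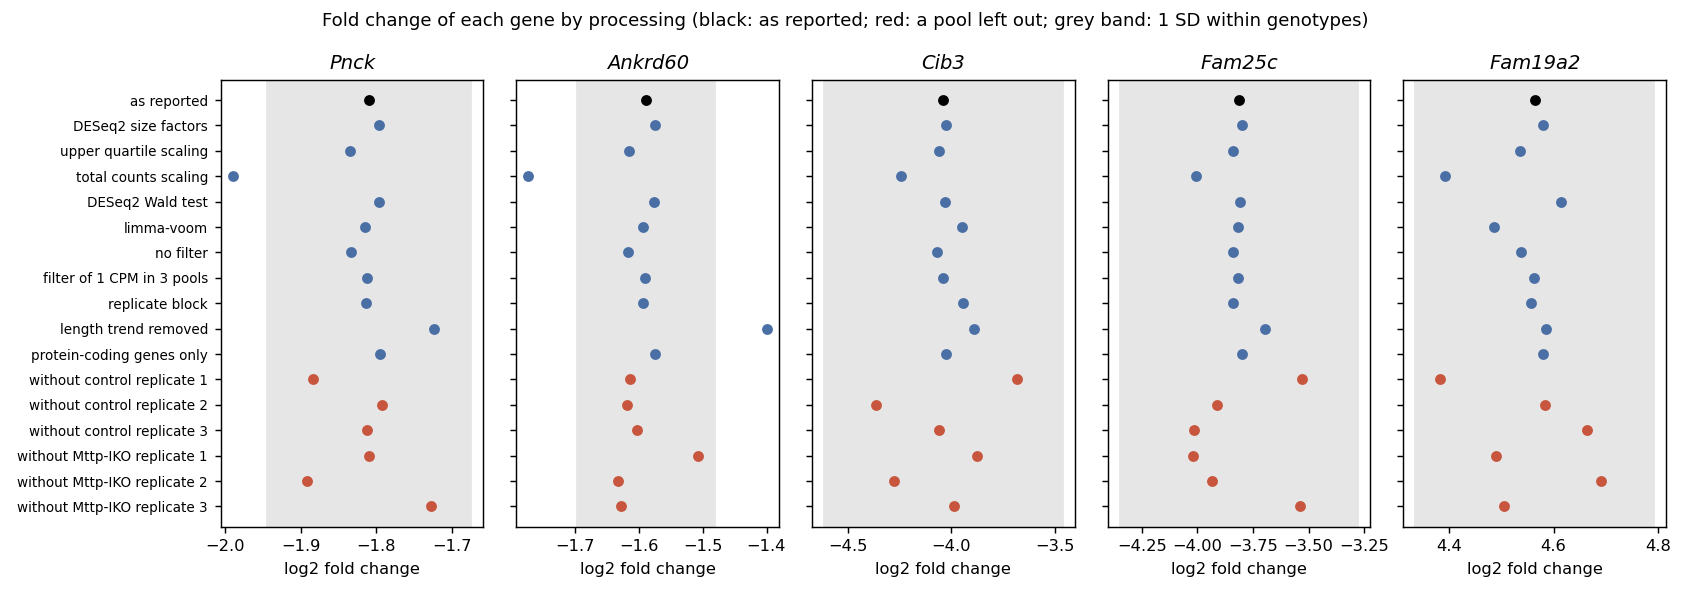
Log2 fold change, Mttp-IKO over control (x axes, a scale of its own for each gene that leaves out 0), of the 5 genes as reported (black), under other scalings, filters, tests and models (blue) and with 1 pool left out (red); the grey band is 1 SD of the pools within genotypes either side of the reported value. Values outside the band are those of Pnck (-1.99) and Ankrd60 (-1.77) under total counts scaling and of Ankrd60 (-1.40) with the trend on gene length removed.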

How the data were processed

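Liver RNA of 3 control and 3 Mttp-IKO pools was sequenced after depletion of ribosomal RNA. The authors aligned reads with STAR 2.5.1a to GRCm38 (Ensembl release 76) and deposited raw counts of uniquely aligned, unambiguous reads per gene from featureCounts 1.4.6-p5; use of strand is not given in the sources used here. The deposited CPM (relative to all reads on genes) and deposited RPKM (CPM per kilobase) follow from those counts and were not tested. A table of all pools repeats the counts of 40481 of the 41388 genes; 276 repeated lines were dropped. Total counts were 25271585 to 36238734, and 3 counts, the limit that a count of 0 allows, were 0.0828 to 0.119 CPM; intervals and limits cover counting error only.

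Pools were grouped by their labels. Genes were kept by filterByExpr with default settings (17287), scaled by TMM (factors 0.898 to 1.11) and compared in R 4.3.3 by the quasi-likelihood test of edgeR 4.0.16, and p-values were adjusted by Benjamini-Hochberg over every gene tested (threshold 0.05); limma 3.58.1 and DESeq2 1.42.0 were alternatives, and the scripts were tested on simulated data. The article names no tool for this contrast. A standard error is that of the fitted log2 fold change. Pool is the replicate, so p-values measure the spread between pools of mice. Exon lengths and coordinates are the deposited ones (GRCm38), protein lengths come from the longest coding transcript in GENCODE M21, levels per kilobase are TMM-scaled CPM over exon length, and promoters are from RefSeq (GRCm38.p6).

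The 5 genes, the gene lists and the motifs were chosen with earlier results of these data known, so the 5 genes carry no p-value and no list is independent support. Named genes were the 5, Mttp, and every called gene and the 5 most abundant tested genes of each list. The nearest tested protein-coding neighbours and the 3 genes with the highest Pearson r per gene were named too. Camk1, Camkk1, Camkk2, Cib2, Cib4, Fam19a1, Fam19a3, Fam19a4, Fam19a5 and Gpr1 were added as relatives or receptors. Camk1d, Ankrd1, Ankrd2, Ankrd23 and Ppp4r1l-ps were added after their values were seen. The values of 2 listed genes that this rule names are not reported here, although the list counts include them. Fits without each pool, with other scalings, filters and tools, with the replicate number as a block and with a trend on gene length removed were alternatives.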

Additional observations from a re-analysis of the deposited data

How the results depend on the processing

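The direction of all 5 genes held in the 16 alternatives, and their size moved by more than 1 SD of the pools only for Pnck (log2 fold change -1.99 with total counts scaling) and Ankrd60 (-1.77 with total counts scaling, -1.40 with the trend on gene length removed). The count of genes called, 694, was 1995 with DESeq2, 428 with limma-voom and 0 to 892 with 1 pool left out: 0 without Mttp-IKO pool 2 (edgeR, 3221 at an unadjusted p under 0.05), 21 without control pool 3, 24 without control pool 1 and 55 without Mttp-IKO pool 1. Total counts scaling moved the median of all genes to -0.17 and called 112 genes higher and 907 lower, against 159 and 535 with TMM. DESeq2 called 1 gene of the CaM kinase list and 3 of the Ankrd list, in which edgeR called 0. The CIB and EF-hand list, with 2 calls, had 1 with total counts scaling, 1 with limma-voom, 0 with the replicate block and 0 to 1 with a pool left out. The TAFA list, with 2, had 1 with DESeq2 size factors and 0 to 2 with a pool left out, and the neighbours, with 0, had 2 with total counts scaling, 2 with DESeq2 and 0 to 2 with a pool left out; the cause of these changes was not tested.

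The labels state no pairing by replicate number, so the reported fit did not treat pools as pairs. Deviations of pools with the same number correlated at 0.139, 0.112 and 0.00698 across genes. Each was the highest r of that control pool with any Mttp-IKO pool, the lowest being -0.115, -0.125 and -0.0127. Whether pools of the same number share a source of variation was not tested. A fit with the replicate number as a block called 592 genes, 143 higher and 449 lower. With 17 control reads, the fold change of Fam19a2 is limited by depth more than those of the other genes.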
